A study of Mus musculus with 12 samples.

Results

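The collagen genes were described here across the estrous cycle of the mouse uterus. All 44 protein-coding genes whose symbol is Col, a number, the letter a and a number were taken, of 35896 genes summed from the deposited transcript tables. Of these, 28 had enough counts to be among the 12052 genes tested. The samples were 12 whole uteri of wild-type female Swiss Webster mice, an outbred stock, aged 8 to 12 weeks, with 3 uteri in each of proestrus (replicates 1, 2 and 3), estrus (3, 4 and 5), metestrus (5, 6 and 7) and diestrus (3, 4 and 5). The labels name no allele and no agent for any group, and the groups are told apart by stage alone. The labels do not say how a stage was assigned, and a whole uterus mixes epithelium, stroma, muscle, vessels and immune cells. Polyadenylated RNA was read near its 3' ends (3' TagSeq), so a value counts transcript ends and was not divided by gene length.

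Collagens are triple helices of 3 chains that are hydroxylated and folded in the endoplasmic reticulum, trimmed outside the cell and cross-linked. Fibrillar collagens form the load-bearing fibrils of the stroma, type IV collagens form the sheet of the basement membrane under epithelium and around muscle and vessels, type VI collagens form beaded filaments between both, and the fibril-associated collagens with interrupted helices (FACIT) decorate fibril surfaces. In the uterus, collagen is laid down and removed as the tissue swells and shrinks under estrogen and progesterone, and most of it is made by stromal fibroblasts and smooth muscle.

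Depth was 1652841 to 2200563 estimated counts per uterus, and 3 counts, the limit that a count of 0 allows, stood for 1.37 to 1.83 CPM (a gene's share of the library's counts on a common scale, adjusted with TMM library factors). That limit covers counting error only, because the reads carried no molecular identifiers. Markers of smooth muscle (Acta2), epithelium (Krt8), endothelium (Pecam1) and uterine stroma (Hoxa11) were present in every library, and the 4 cartilage markers were too low to be tested. Skeletal muscle markers summed to 58.8 to 86.8 CPM in proestrus and 129.1 to 196.4 in diestrus. The 3 of them tested were all called over the cycle in the test given below. Mesothelium markers summed to 59.5 to 116.0 CPM and oviduct markers to 8.90 to 55.7 over the 12 uteri. Whether neighbouring tissue was carried over was not tested. Nothing in the labels ties replicate numbers to an animal or a day across stages. The 3 metestrus uteri stood apart from each other in the collagens. Replicate 5 was the lowest of its stage for 23 of the 28 tested collagens and replicate 6 the highest for 17, and the median coefficient of variation over the 28 genes was 58.1% in metestrus against 13.1% in proestrus, 12.2% in estrus and 22.8% in diestrus. Counts of called members, and members whose call changes, are therefore also given without the 3 metestrus uteri, an alternative added after the data were seen. The stage was left out for the spread of the collagens themselves, so their share called without it is not an independent comparison with all genes. The spread of all genes within metestrus was not compared.

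Collagens other than Col4a3 took 0.562% to 1.48% of a library. The 3 main chains of the stromal fibrils, Col1a1, Col1a2 and Col3a1, held 68.0% to 77.0% of those counts in each uterus. Summed over the 11 fibrillar genes, proestrus uteri held 10630, 10830 and 11330 CPM, estrus uteri 7199, 6411 and 7105, metestrus uteri 3955, 11500 and 8538, and diestrus uteri 8590, 10240 and 7087. Every proestrus uterus lay above every estrus and diestrus uterus. The 6 type VI genes summed to 2569, 2336 and 2471 CPM in proestrus, 1344, 1150 and 1354 in estrus, 708.5, 2434 and 875.8 in metestrus, and 1702, 1096 and 1500 in diestrus. Type VI transcripts were thus higher in every proestrus uterus than in every other uterus except metestrus replicate 6. The FACIT genes ran differently, with 111.8 to 147.2 CPM in proestrus, 78.4 to 96.5 in estrus, 53.4 to 195.0 in metestrus and 204.3 to 248.2 in diestrus, so that all diestrus uteri lay above all other uteri. The basement membrane collagens without Col4a3 summed to 688.9 to 815.0 CPM in proestrus, 966.1 to 1068 in estrus, 657.1 to 991.6 in metestrus and 983.1 to 1016 in diestrus. They were lowest in proestrus, the stage in which the fibrillar and type VI sums were highest, apart from metestrus replicate 5 at 657.1. These sums have no test, since a sum follows its most abundant member.

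**Figure D1:**
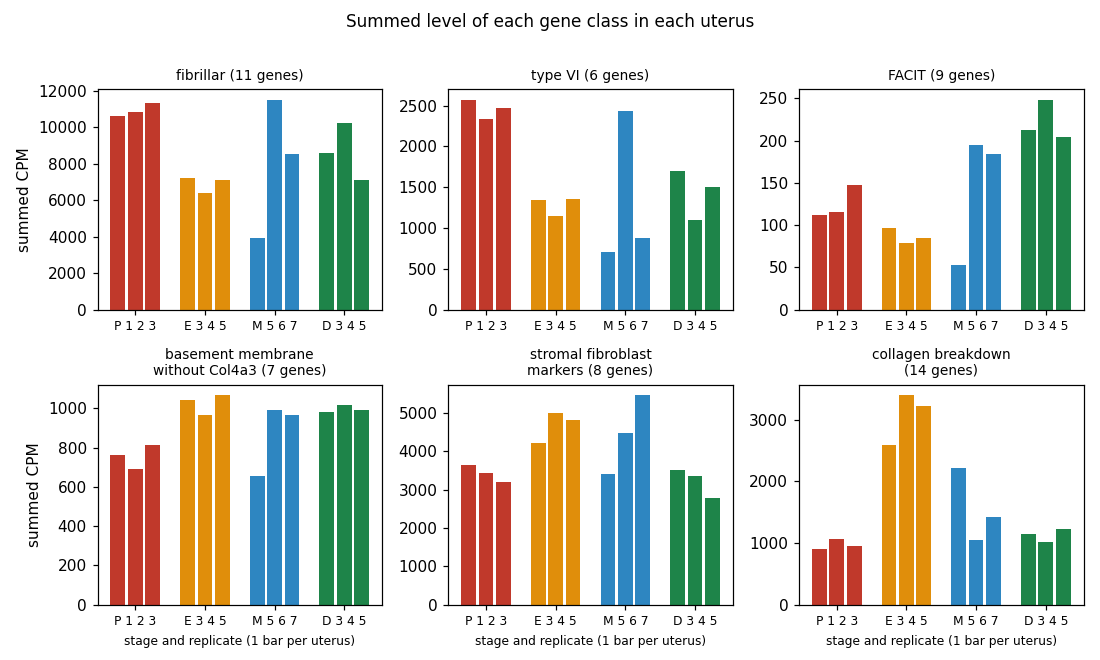
Summed CPM (vertical axis) of 4 collagen classes, of 8 stromal fibroblast markers and of 14 collagen breakdown genes, their inhibitors included, in each uterus. There is 1 bar per uterus, with the stages proestrus (P), estrus (E), metestrus (M) and diestrus (D) along the horizontal axis. Fibrillar and type VI sums are lower and the breakdown sum higher in estrus than in proestrus. Ctsl is the largest part of the breakdown sum in estrus. FACIT sums are highest in diestrus, and metestrus replicate 5 is the lowest bar of all 4 collagen classes.

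Over the 4 stages, 6 of the 28 tested collagens differed by edgeR's quasi-likelihood test with an adjusted p (Benjamini-Hochberg) under 0.05. This is 21.4% of them, beside 23.2% called over all genes tested, so the share is near the background. The stage with the highest mean was proestrus for 10, estrus for 2, metestrus for 1 and diestrus for 15 of the 28, beside 24.6%, 32.8%, 17.8% and 24.8% of all genes. The 6 were 1 of 8 fibrillar genes (Col11a1), 2 of 8 basement membrane genes (Col18a1 and Col4a1) and 3 of the 12 others (Col12a1, Col23a1 and Col6a3). Without the metestrus uteri, 19 of 27 were called (70.4%), beside 35.7% of all genes in that fit, namely 5 of 8 fibrillar, 4 of 8 basement membrane and 10 of 11 others. Metestrus was left out for its spread in these same genes, so the difference from all genes is not a test. DESeq2 called 10 of 28 with all 12 uteri, beside 2850 of 12041 genes. Single uteri moved the count of 6 as well: it was 15, 13 and 10 without metestrus replicate 5, 6 or 7, was 2, 2 and 3 without proestrus replicate 1, 2 or 3, 2, 3 and 2 without estrus replicate 3, 4 or 5, and 2 and 3 without diestrus replicate 4 or 5. The counts over all genes moved too, from 2793 to between 1910 (without estrus replicate 5) and 3428 (without metestrus replicate 5).

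**Figure D2:**
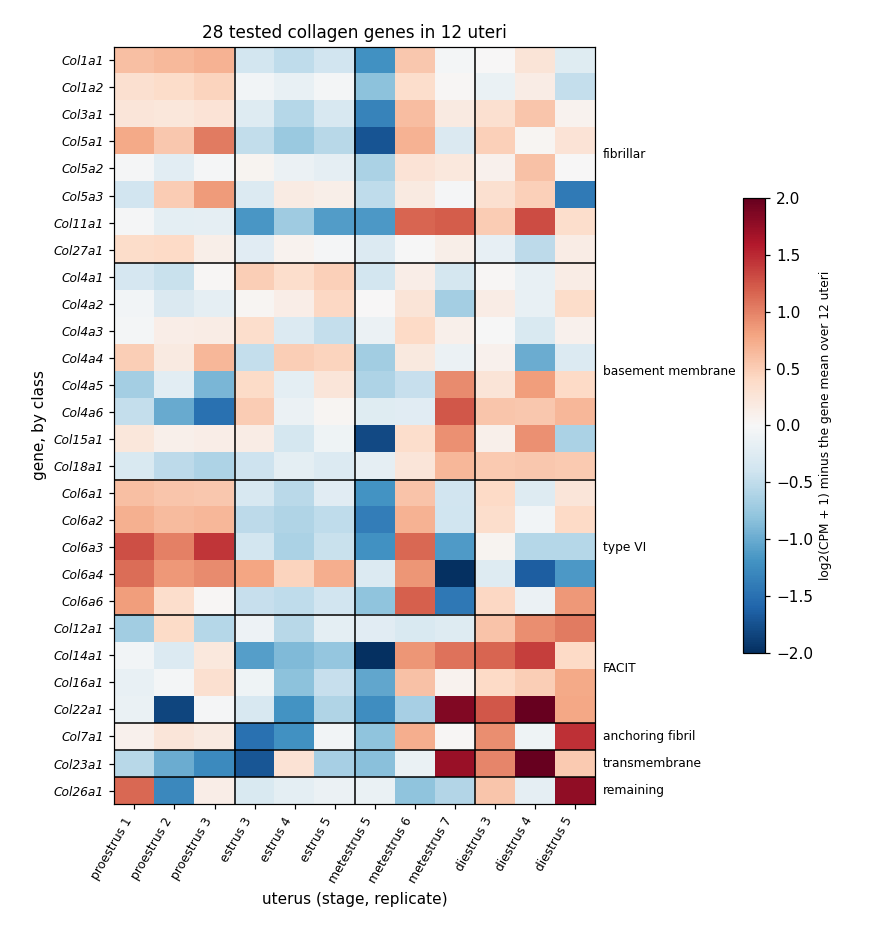
Level of the 28 tested collagens (rows, by class) in the 12 uteri (columns), as log2(CPM + 1) minus the mean of that gene over all 12. Most fibrillar and type VI rows are red in proestrus and blue in estrus, FACIT rows are red in diestrus, and the columns of metestrus replicates 5 and 6 contrast within their stage.

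The 2 chain genes of type I collagen, the main fibril of the uterine wall, were both highest on average in proestrus. Col1a1 (ENSMUSG00000001506, chromosome 11, 94936224 to 94953042, plus strand, GRCm38) measured 3144, 3247 and 3339 CPM in proestrus, 1611, 1454 and 1581 in estrus, 893.6, 3002 and 2023 in metestrus, and 2082, 2485 and 1753 in diestrus. The proestrus uteri were the highest of all, and none overlapped with another stage. The log2 fold change in estrus against proestrus was -1.07 (SE 0.30, adjusted p = 0.028). Col1a2 (ENSMUSG00000029661, chromosome 6, 4504814 to 4541544, plus strand), the partner chain, measured 4223, 4381 and 4594 CPM in proestrus, 3272, 3053 and 3315 in estrus, 1920, 4326 and 3432 in metestrus, and 3094, 3776 and 2448 in diestrus. Its estrus uteri lay below all proestrus uteri, but the log2 fold change of -0.45 (SE 0.24) had an adjusted p of 0.217, and 0.0317 without the metestrus uteri. The ratio of Col1a2 to Col1a1 was 1.34, 1.35 and 1.38 in the proestrus uteri and 2.03, 2.10 and 2.10 in the estrus uteri. It lay between 1.40 and 1.52 in diestrus and spread from 1.44 to 2.15 in metestrus. The assembled type I molecule has a fixed chain ratio, which these transcript ratios do not measure.

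Col3a1 (ENSMUSG00000026043, chromosome 1, 45311538 to 45349706, plus strand), the chain of the fine type III fibrils, measured 2804, 2793 and 2887 CPM in proestrus, 1980, 1604 and 1908 in estrus, 946.6, 3671 and 2686 in metestrus, and 2978, 3483 and 2493 in diestrus. Estrus was below proestrus and diestrus without overlap, while proestrus and diestrus overlapped. With all 12 uteri no contrast was called for Col3a1 (estrus against proestrus -0.63, SE 0.33, adjusted p = 0.221). Without metestrus, estrus was lower than proestrus by -0.64 (SE 0.14, adjusted p = 0.00414), and diestrus higher than estrus by 0.72 (SE 0.14, adjusted p = 0.00142). The ratio of Col3a1 to Col1a1 was 0.872 ± 0.0172 in proestrus, 1.18 ± 0.0672 in estrus, 1.20 ± 0.135 in metestrus and 1.42 ± 0.0148 in diestrus (SD, n = 3). All 3 diestrus uteri had a higher type III to type I ratio than every other uterus, and all 3 proestrus uteri a lower one.

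Type V collagen sits inside type I fibrils and limits their width. Col5a1 (ENSMUSG00000026837, chromosome 2, 27886425 to 28039514, plus strand) measured 213.3, 183.3 and 259.8 CPM in proestrus, 89.7, 74.9 and 85.2 in estrus, 37.3, 205.8 and 103.1 in metestrus, and 175.0, 130.0 and 152.2 in diestrus, and fell from proestrus to estrus by 1.39 on the log2 scale (SE 0.39, adjusted p = 0.0279). Its partner Col5a2 did not follow: 195.0 ± 14.4 CPM in proestrus and 195.3 ± 17.7 in estrus (SD, n = 3; log2 fold change 0.00, SE 0.22, adjusted p = 0.997). The ratio of Col5a2 to Col5a1 was therefore 0.903 ± 0.104 in proestrus and 2.35 ± 0.203 in estrus, with no overlap. Col11a1 (ENSMUSG00000027966, chromosome 3, 114030540 to 114220718, plus strand), a minor fibril chain best known from cartilage, measured 7.99, 7.01 and 7.11 CPM in proestrus, 3.09, 4.58 and 3.21 in estrus, 3.11, 19.6 and 20.3 in metestrus, and 12.0, 21.8 and 10.8 in diestrus. All estrus uteri lay below all proestrus and diestrus uteri, and diestrus was above estrus by 2.02 (SE 0.57, adjusted p = 0.0204). Col5a3 and Col27a1 had stage means of 11.4 to 16.6 and 13.6 to 19.1 CPM with no call in any contrast, and Col2a1, Col11a2 and Col24a1 were too low to test.

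**Figure D3:**
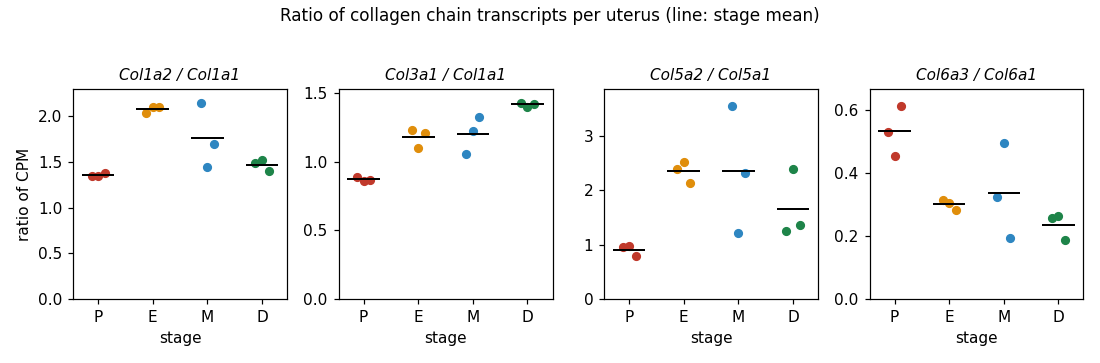
Ratio of the CPM of a pair of collagen chains in each uterus (points, vertical axis from 0) with the stage mean (line), for proestrus (P), estrus (E), metestrus (M) and diestrus (D). The Col1a2 to Col1a1 ratio is 1.34 to 1.38 in proestrus and 2.03 to 2.10 in estrus, the Col3a1 to Col1a1 ratio is highest in diestrus, and the Col6a3 to Col6a1 ratio is highest in 2 of the proestrus uteri.

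Type VI collagen transcripts were highest in proestrus. Col6a3 (ENSMUSG00000048126, chromosome 1, 90765923 to 90843971, minus strand), the long chain of the type VI heterotrimer, measured 407.9, 338.5 and 452.7 CPM in proestrus, 128.7, 107.0 and 122.7 in estrus, 71.6, 372.4 and 75.7 in metestrus, and 173.0, 112.2 and 112.6 in diestrus. Metestrus replicate 6 was the one uterus outside proestrus above 200. Estrus against proestrus was -1.74 (SE 0.48, adjusted p = 0.0243), and proestrus against diestrus 1.59 (SE 0.47, adjusted p = 0.0542, and 5.11e-05 without metestrus). Its partners had smaller fold changes, a difference that was not tested. Col6a2 (ENSMUSG00000020241, chromosome 10, 76595762 to 76623630, minus strand) measured 764.9, 731.5 and 744.0 CPM in proestrus, 325.4, 310.6 and 330.2 in estrus, 180.0, 760.6 and 355.3 in metestrus, and 601.2, 452.3 and 619.7 in diestrus, a log2 change from proestrus to estrus of -1.21 (SE 0.35, adjusted p = 0.0298). Col6a1 (ENSMUSG00000001119, chromosome 10, 76708792 to 76726168, minus strand), the most abundant gene outside the fibrillar and basement membrane classes, measured 769.5, 747.1 and 737.4 CPM in proestrus, 408.3, 349.5 and 436.5 in estrus, 222.0, 753.7 and 388.7 in metestrus, and 672.5, 425.1 and 603.3 in diestrus. Every estrus uterus lay below every proestrus uterus, with a log2 fold change of -0.92 (SE 0.32) and an adjusted p of 0.0627, and 0.00084 without metestrus. In diestrus Col6a1 and Col6a2 stood at 567.0 ± 128 and 557.8 ± 91.8 CPM while Col6a3 stayed at 132.6 ± 35.0. The ratio of Col6a3 to Col6a1 was 0.532 ± 0.0804 in proestrus, 0.301 ± 0.0177 in estrus and 0.236 ± 0.0428 in diestrus, and every proestrus uterus was above every estrus and diestrus uterus.

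Col6a4 (ENSMUSG00000032572, chromosome 9, 105989454 to 106096783, minus strand), a further type VI chain, had its lowest stage in diestrus instead of estrus. It measured 584.7, 489.5 and 514.1 CPM in proestrus, 464.0, 366.1 and 445.6 in estrus, 221.5, 493.0 and 48.3 in metestrus, and 223.3, 85.03 and 120.0 in diestrus. All proestrus and estrus uteri lay above all diestrus uteri. Proestrus was above diestrus by 1.89 (SE 0.55, adjusted p = 0.0489). The estimated counts of this gene lay to 96.3% on 1 transcript that GENCODE lists as a processed transcript without a coding frame, Col6a4-203. The deposited tables cannot tell how reads of any 3' end shared with a coding transcript were split. Col6a6 had stage means of 16.2 to 31.02 CPM with no call, and 4.31% of its 31-base words also occur in another gene, mostly Col6a5, which was too low to test.

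Of the 6 type IV collagens, 1 was called higher in estrus than in proestrus by the fit to 12 uteri and 3 (Col4a1, Col4a5 and Col4a6) without metestrus. Of all genes, 9.67% were called higher in the first fit and 12.8% in the second. These were also the only collagens called higher, 1 of 28 tested (3.57%) and 3 of 27. Col4a1 (ENSMUSG00000031502, chromosome 8, 11198423 to 11312826, minus strand), a chain of every basement membrane, measured 355.9, 327.8 and 456.7 CPM in proestrus, 628.5, 572.0 and 624.2 in estrus, 346.5, 490.5 and 352.3 in metestrus, and 457.2, 404.4 and 495.2 in diestrus. Every estrus uterus lay above all 9 other uteri. Estrus was above proestrus by 0.68 (SE 0.17, adjusted p = 0.0151) and metestrus below estrus by -0.62 (SE 0.17, adjusted p = 0.0406). Its partner Col4a2 starts 21 bases away on the opposite strand, the start sites lying at 11312826 and 11312805, and the exons overlap by 22 bases. Col4a2 measured 100.6 ± 8.69 CPM in proestrus and 130.9 ± 17.9 in estrus (SD, n = 3), also without overlap, and had no call (log2 fold change 0.38, SE 0.21, adjusted p = 0.238). Of the counts of Col4a1, 66.9% lay on Col4a1-208, a transcript listed as subject to nonsense-mediated decay, and the deposited tables cannot tell how reads of a shared 3' end were split.

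The other type IV pair, Col4a5 and Col4a6, which form a network in some epithelia and in smooth muscle, was lowest in proestrus. Col4a5 measured 20.9 ± 5.51, 35.5 ± 7.22, 34.8 ± 23.1 and 45.5 ± 9.995 CPM from proestrus through diestrus, and Col4a6 (ENSMUSG00000031273, chromosome X, 141165403 to 141474076, minus strand) 3.47 ± 1.57, 8.60 ± 2.25, 10.5 ± 7.40 and 11.8 ± 0.599 CPM (SD, n = 3). The uteri of Col4a6 read 5.13, 3.23 and 2.03 CPM in proestrus, 11.1, 6.86 and 7.79 in estrus, 6.22, 6.31 and 19.1 in metestrus, and 11.5, 11.4 and 12.5 in diestrus. For both genes all diestrus and all estrus uteri lay above all proestrus uteri. Proestrus against diestrus was -1.76 for Col4a6 (SE 0.49, adjusted p = 0.0383) and -1.13 for Col4a5 (SE 0.37, adjusted p = 0.0766, and 0.0048 without metestrus).

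Col18a1 (ENSMUSG00000001435, chromosome 10, 77052178 to 77166548, minus strand), a heparan sulfate proteoglycan collagen of basement membranes whose end fragment is endostatin, had the smallest p of the family over the cycle (adjusted p = 0.00306). It measured 122.1, 104.0 and 97.4 CPM in proestrus, 112.6, 131.0 and 124.6 in estrus, 132.8, 178.6 and 237.9 in metestrus, and 217.4, 220.0 and 216.2 in diestrus. Proestrus and estrus overlapped, every metestrus uterus lay above both, and the diestrus uteri lay close together (SD 1.93 CPM, n = 3). Diestrus was above estrus by 0.83 (SE 0.18, adjusted p = 0.00499), proestrus below diestrus by -1.02 (SE 0.18, adjusted p = 0.00347), and metestrus above proestrus by 0.76 (SE 0.18, adjusted p = 0.0327). Its call over the cycle held in all 12 fits that left out 1 uterus, with adjusted p between 0.000255 and 0.0121. Col15a1, the related basement membrane proteoglycan of vessels and muscle, ran from 32.2 to 217.5 CPM with no call in any contrast. Col4a4 had stage means of 7.61 to 13.9 CPM, also with no call.

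Col4a3 was listed as the fourth most abundant collagen, at 1923 CPM on average over 12 uteri, although its obligate partner Col4a4 stood at 10.5 CPM. Of its estimated counts, 99.7% lay on 1 short transcript, Col4a3-204, of 627 bases, which had 41900 counts over the 12 uteri and holds a run of 26 T. The window at bases 551 to 580 of that transcript is printed because it holds the run, given in capitals.
Col4a3-204: cgTTTTTTTTTTTTTTTTTTTTTTTTTTgt
Of the 299 annotated transcripts with a T run at least as long, 66.9% had 100 or more counts, against 12.8% of the other transcripts. Whether the reads came from this gene was not tested. Col4a3 (ENSMUSG00000079465, chromosome 1, 82586921 to 82722059, plus strand) measured 1844, 2075 and 2102 CPM in proestrus, 2413, 1568 and 1356 in estrus, 1741, 2506 and 2033 in metestrus, and 1879, 1538 and 2017 in diestrus. The stages overlapped, the adjusted p over the cycle was 0.722, and the gene is left out of the basement membrane sums.

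**Figure D4:**
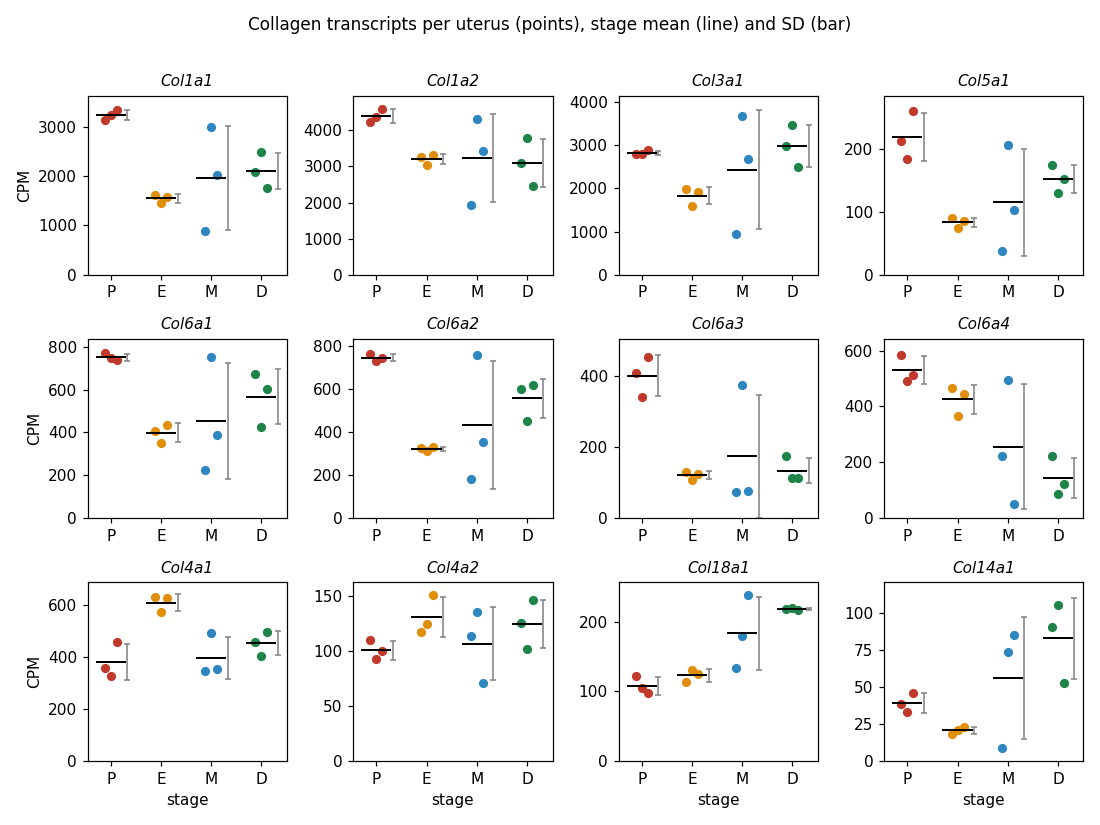
CPM (vertical axis, from 0) of 12 collagens in each uterus (points), with the stage mean (line) and SD (bar, n = 3), for proestrus (P), estrus (E), metestrus (M) and diestrus (D). Col1a1, Col5a1 and the type VI genes are high in proestrus, Col4a1 peaks in estrus, Col18a1 and Col14a1 are high in diestrus, and metestrus has the widest bars in most panels.

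The FACIT collagens and several minor collagens were highest in diestrus. Col12a1 (ENSMUSG00000032332, chromosome 9, 79598991 to 79718831, minus strand), which bridges fibrils in loaded tissue, measured 4.56, 10.8 and 5.08 CPM in proestrus, 7.42, 5.15 and 6.87 in estrus, 6.74, 6.31 and 6.56 in metestrus, and 12.5, 16.3 and 17.6 in diestrus. Each diestrus uterus lay above all 9 others. Diestrus was above estrus by 1.24 (SE 0.34, adjusted p = 0.0181) and proestrus below diestrus by -1.17 (SE 0.34, adjusted p = 0.0468). Col14a1 (ENSMUSG00000022371, chromosome 15, 55307750 to 55520803, plus strand), a fibril-surface collagen, measured 38.2, 32.9 and 46.2 CPM in proestrus, 17.9, 21.2 and 22.9 in estrus, 8.82, 73.9 and 85.3 in metestrus, and 90.7, 105.8 and 52.6 in diestrus. It was above estrus in every diestrus uterus, by 2.00 (SE 0.53, adjusted p = 0.015). Col16a1 (ENSMUSG00000040690, chromosome 4, 130047840 to 130099283, plus strand), the most abundant FACIT gene, measured 63.9, 69.0 and 89.3 CPM in proestrus, 66.8, 40.0 and 51.3 in estrus, 34.2, 107.9 and 74.5 in metestrus, and 94.7, 100.3 and 120.6 in diestrus. Every diestrus uterus lay above every proestrus and estrus uterus, and diestrus was above estrus by 1.00 (SE 0.31, adjusted p = 0.0332). Of its counts, 93.9% lay on a transcript listed as a processed transcript, Col16a1-207. Col22a1, of tissue junctions, was near the floor in proestrus and estrus and at 7.48, 14.8 and 5.09 CPM in diestrus. Diestrus against estrus was 2.80 (SE 0.97) with an adjusted p of 0.0517 in edgeR, and DESeq2 called it higher in diestrus.

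Col7a1 (ENSMUSG00000025650, chromosome 9, 108953586 to 108984875, plus strand), the anchoring fibril that ties epithelium to stroma, measured 5.70, 6.47 and 6.09 CPM in proestrus, 1.24, 1.72 and 5.04 in estrus, 2.59, 9.47 and 5.37 in metestrus, and 10.97, 4.94 and 16.4 in diestrus. Estrus replicates 3 and 4 lay at or below the level of 3 counts (1.73 and 1.72 CPM). Estrus and diestrus overlapped, and diestrus was above estrus by 1.90 (SE 0.59, adjusted p = 0.0322). Col23a1 (ENSMUSG00000063564, chromosome 11, 51289920 to 51583918, plus strand), a transmembrane collagen, measured 3.99, 2.70 and 2.03 CPM in proestrus, 1.24, 8.01 and 3.66 in estrus, 3.11, 5.68 and 23.3 in metestrus, and 13.5, 46.0 and 9.62 in diestrus. Its estrus replicate 3 also lay below the level of 3 counts. Proestrus was below diestrus by -2.98 (SE 0.81, adjusted p = 0.0361) and diestrus above estrus by 2.41 (SE 0.76, adjusted p = 0.0362). The first call was lost without any proestrus uterus, estrus replicate 5 or diestrus replicate 4 (adjusted p up to 0.203), and the second without estrus replicate 3 or 5 or diestrus replicate 4 (up to 0.220). Col26a1 ranged from 1.08 to 16.4 CPM with no call. The 16 collagens not tested were Col2a1 and Col9a1, with no count in any uterus, and Col6a5, Col8a1, Col8a2, Col9a2, Col9a3, Col10a1, Col11a2, Col13a1, Col17a1, Col19a1, Col20a1, Col24a1, Col25a1 and Col28a1, of which Col8a2 was highest at 4.57 CPM on average.

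Read by contrast, estrus against proestrus called 4 collagens lower (Col1a1, Col5a1, Col6a2 and Col6a3) and 1 higher (Col4a1), beside 7.46% and 9.67% of all genes tested. The shares of the members were 14.3% lower and 3.57% higher. All 3 estrus uteri lay below all 3 proestrus uteri for 13 of 28 (46.4%), beside 18.1% of all genes, and above them for 4 (14.3%), beside 20.9%. The 4 above were Col4a1, Col4a2, Col4a5 and Col4a6. For either direction the background was 17.1%. The median log2 fold change over the 28 was -0.40, beside 0.02 over all genes. Without metestrus, 9 were lower and 3 higher, beside 11.1% and 12.8% of all genes (23.9% in either direction). The 9 were Col1a1, Col1a2, Col3a1, Col5a1, Col6a1, Col6a2, Col6a3, Col6a6 and Col14a1, and the 3 were Col4a1, Col4a5 and Col4a6. The count of 5 became 0, 2 and 1 without proestrus replicate 1, 2 or 3, 1, 1 and 0 without estrus replicate 3, 4 or 5, and 8 without metestrus replicate 5.

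Diestrus against estrus called 7 collagens, all higher (Col7a1, Col11a1, Col12a1, Col14a1, Col16a1, Col18a1 and Col23a1), and none lower, beside 9.72% and 13.0% of all genes (22.8% in either direction). Those 7 are 25.0% of the members. All 3 diestrus uteri lay above all 3 estrus uteri for 13 (46.4%), beside 20.6% of all genes, and below them for Col4a1 and Col6a4, beside 22.4%. The median log2 fold change was 0.48, beside 0.00 over all genes. Without metestrus, 13 were higher and 2 lower (Col4a1 and Col6a4), beside 13.9% and 15.8% (29.7% in either direction). The count of 7 became 3, 4 and 4 without estrus replicate 3, 4 or 5, 3 and 4 without diestrus replicate 4 or 5, and 12 without metestrus replicate 5 or 6.

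Proestrus against diestrus called 1 collagen higher in proestrus (Col6a4) and 4 lower (Col4a6, Col12a1, Col18a1 and Col23a1), beside 4.62% and 3.91% of all genes (8.53% in either direction). All proestrus uteri lay above all diestrus uteri for 8 members (28.6%), beside 15.8%, and below them for 10 (35.7%), beside 14.9%. Without metestrus, 6 were higher in proestrus (Col1a1, Col1a2, Col5a1, Col6a2, Col6a3 and Col6a4) and 6 lower (the earlier 4 with Col4a5 and Col14a1), beside 6.92% and 6.36% (13.3% in either direction). The count of 5 became 1 to 3 without any single proestrus, estrus or diestrus uterus, and 9 and 8 without metestrus replicate 5 or 7.

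Metestrus against estrus called Col4a1 alone, lower, beside 4.73% of all genes called lower, 2.83% called higher and 7.56% in either direction. The call held only without proestrus replicate 2 or 3 or metestrus replicate 6, with adjusted p up to 0.118, and 8 other collagens were called without metestrus replicate 5. The uteri did not overlap for 1 member in each direction, beside 11.1% (higher) and 14.3% (lower) of all genes. Metestrus against proestrus called Col18a1 alone, higher, beside 2.49% called higher, 1.82% lower and 4.31% in either direction. The uteri did not overlap for 2 members in each direction, beside 11.5% (higher) and 11.8% (lower). None was called without proestrus replicate 1, 2 or 3, estrus replicate 5, metestrus replicate 7 or diestrus replicate 3, but 4 and 9 without metestrus replicate 5 or 6. Diestrus against metestrus called none of 28 with edgeR and none with DESeq2, beside 0.224% of all genes (0.133% higher and 0.0913% lower), and 2 had an unadjusted p under 0.05. It called 2 without metestrus replicate 6. The uteri did not overlap for Col12a1 alone, higher in diestrus, beside 6.97% of all genes higher and 7.15% lower.

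**Figure D5:**
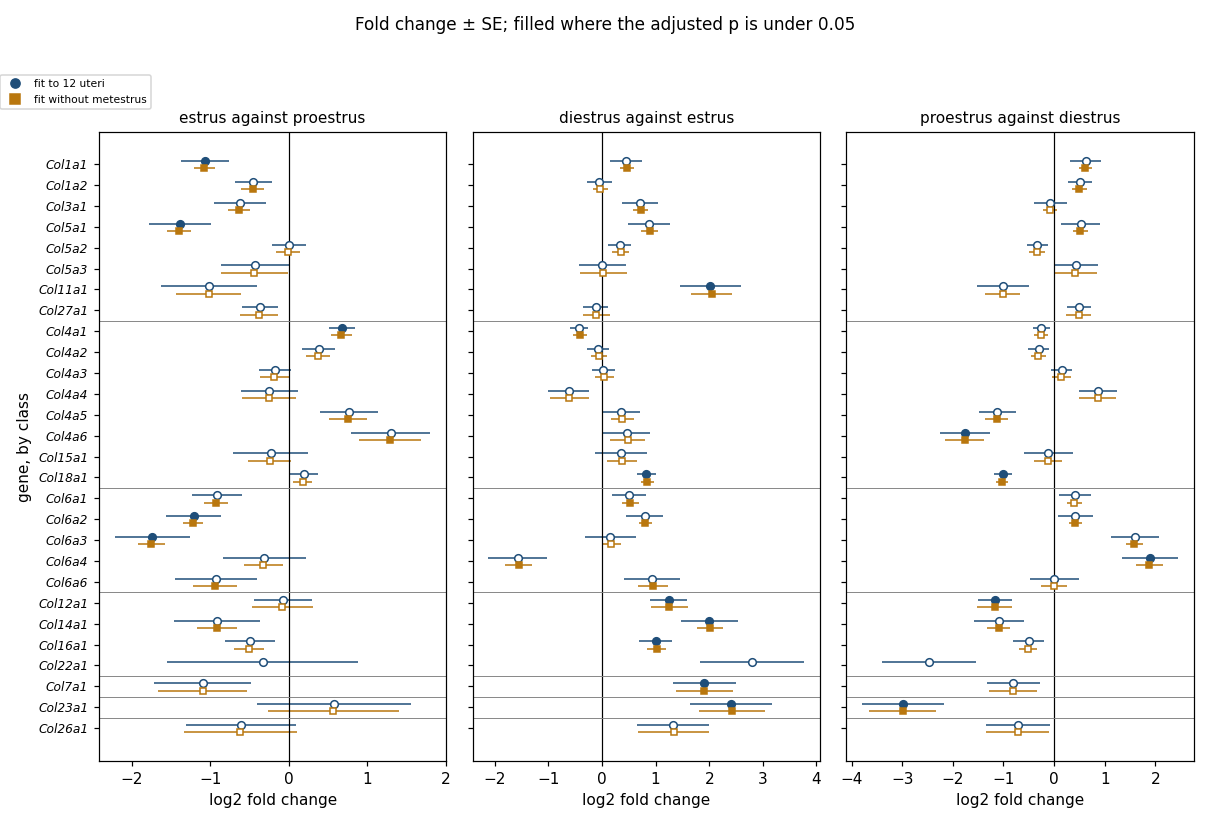
Log2 fold change with its SE (horizontal axis) of the 28 tested collagens (rows, by class) in 3 contrasts, from the fit to 12 uteri (circles) and the fit without metestrus (squares), filled where the adjusted p is under 0.05. Circles and squares lie at nearly the same fold change, the bars of the squares are shorter for most genes, and more squares than circles are filled.

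The fit had 1 coefficient per stage, so leaving out metestrus could move fold changes between the other stages only slightly, by construction. Their errors shrank for most genes. For Col1a1 in estrus against proestrus the log2 fold change was -1.07 with SE 0.30 in the fit to 12 uteri and -1.08 with SE 0.13 without metestrus (adjusted p = 8.09e-05). For Col6a3 it was -1.74 with SE 0.48 and -1.75 with SE 0.17 (adjusted p = 1.7e-05), and for Col14a1 in diestrus against estrus 2.00 with SE 0.53 and 2.02 with SE 0.24 (adjusted p = 4.45e-05). The calls in single genes leaned on single uteri as well. Among the calls over the cycle, that of Col12a1 was lost without diestrus replicate 4 or 5 (adjusted p up to 0.107) and that of Col4a1 without proestrus replicate 1 or 2 or any estrus uterus (up to 0.0966). That of Col23a1 was lost without any proestrus uterus, estrus replicate 3 or 5 or diestrus replicate 4 (up to 0.157). That of Col6a3 was lost without any proestrus or estrus uterus or diestrus replicate 4 or 5 (up to 0.114), and that of Col11a1 held only without metestrus replicate 5 (up to 0.141).

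Between estrus and proestrus, the calls of Col1a1 and Col6a2 were lost without any 1 of the 6 uteri compared (up to 0.085 and 0.087), those of Col5a1 and Col6a3 without any of them but proestrus replicate 2 (up to 0.0961 and 0.082), and that of Col4a1 without proestrus replicate 1 or 2 or estrus replicate 5 (up to 0.0665). Between diestrus and estrus, Col14a1 was lost without estrus replicate 3 (0.0562), Col11a1 without estrus replicate 3 or 5 or diestrus replicate 4 (up to 0.0835), and Col12a1 without estrus replicate 4 or diestrus replicate 4 or 5 (up to 0.0649). Col16a1 was lost without estrus replicate 4 or 5 or any diestrus uterus (up to 0.109), and Col7a1 without estrus replicate 3 or 4 or diestrus replicate 3 or 5 (up to 0.134). Between proestrus and diestrus, Col6a4 was lost without any proestrus or estrus uterus or diestrus replicate 4 or 5 (up to 0.18), Col12a1 without proestrus replicate 1 or 3 or any estrus or diestrus uterus (up to 0.175), and Col4a6 without proestrus replicate 2 or 3, estrus replicate 4 or 5 or any diestrus uterus (up to 0.153). Col18a1 kept both its diestrus contrasts in all 12 fits.

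Markers of other cell types also differed between stages. Of the 8 stromal fibroblast markers, all tested and none at 0, Pdgfra and Pdgfrb were called higher and Hoxa11 lower in estrus than in proestrus, and their sum was 3213 to 3642 CPM in proestrus, 4229 to 5014 in estrus, 3412 to 5475 in metestrus and 2773 to 3509 in diestrus. In diestrus, 3 of the 8 were called higher (Thy1, Hand2 and Hoxa11) and 1 lower (Dcn) than in estrus, and 4 higher (the same 3 and Pdgfra) and none lower than in proestrus. The sum follows Dcn, its most abundant marker, with stage means of 2475, 3398, 3055 and 1743 CPM. Beside the fibrillar sum, the stromal sum was higher in estrus and the fibrillar sum lower than in proestrus, while in diestrus both had means below those of proestrus. Of the 8 smooth muscle markers 3 (37.5%) were called higher in estrus than in proestrus, beside 9.67% of all genes, with sums of 6373 to 8999 and 8501 to 10920 CPM, and of the 6 tested leukocyte markers (of 8) 4 (66.7%) were called higher, with sums of 94.7 to 132.6 and 264.8 to 347.8 CPM. The 8 epithelial markers, of which 6 were called higher and 2 lower in proestrus than in diestrus, summed to 1677 to 2250 CPM in proestrus and 679.5 to 828.6 in diestrus, and Col6a4 was also higher in proestrus. In metestrus replicate 5, the uterus with the lowest collagens, the stromal sum was 3412 CPM, beside 4470 and 5475 in the other metestrus uteri. That value lay within the proestrus range of 3213 to 3642, the stage with the highest fibrillar mean. The part of cell makeup in the collagen results was not tested, and in whole tissue fewer cells of a type and less RNA per cell cannot be told apart.

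Among genes that fold and hydroxylate collagen, 10 of 20 tested (50%) differed over the cycle, beside 23.2% of all genes. Serpinh1, the collagen-specific chaperone HSP47, measured 429.5, 506.2 and 583.6 CPM in proestrus, 238.2, 179.0 and 231.3 in estrus, 257.8, 511.9 and 420.9 in metestrus, and 444.7, 524.0 and 501.5 in diestrus. All estrus uteri lay below all 9 others, nearest to metestrus replicate 5, and estrus was below proestrus by -1.23 (SE 0.22, adjusted p = 0.00271) and below diestrus (diestrus minus estrus 1.18, SE 0.22, adjusted p = 0.00195). In diestrus against estrus 9 of the 20 (45%) were called higher, beside 9.72% of all genes (Serpinh1, the prolyl 3-hydroxylase family members P3h1, P3h3 and P3h4 and their partner Crtap, the isomerases Fkbp10 and Fkbp14, the glycosyltransferase Colgalt1 and the prolyl 4-hydroxylase P4ha2) and 1 lower (Plod1). The lysyl hydroxylases parted: Plod1, which acts on the helix, was highest in estrus (52.9, 119.8, 80.2 and 67.3 CPM on average from proestrus through diestrus; adjusted p = 0.000906), and Plod2, which acts on the chain ends, was highest in proestrus (103.9, 28.7, 51.2 and 38.2 CPM, adjusted p = 0.000906). Estrus was above proestrus for Plod1 by 1.18 (SE 0.16) and below it for Plod2 by -1.85 (SE 0.26). P4hb, a subunit of the prolyl 4-hydroxylase that also serves other proteins, had stage means of 310.3 to 360.4 CPM with no call.

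Of the genes that trim procollagen and cross-link fibrils, 7 of 9 tested (77.8%) differed over the cycle, beside 23.2% of all genes, and 4 without estrus replicate 5 or diestrus replicate 3 or 5. Lox, the main lysyl oxidase, measured 110.1, 84.1 and 135.0 CPM in proestrus, 143.5, 196.8 and 164.9 in estrus, 109.4, 64.4 and 101.9 in metestrus, and 34.9, 34.6 and 40.8 in diestrus. It was highest in estrus, when the fibrillar collagens were low, but estrus against proestrus was not called for Lox. Every diestrus uterus lay below all others (diestrus minus estrus -2.20, SE 0.22, adjusted p = 3.57e-05). The related oxidases Loxl1, Loxl2 and Loxl3 went the other way and were called higher in diestrus than in estrus. Tgm2, a transglutaminase that cross-links matrix, was 478.4 CPM on average in estrus and 231.7 to 244.0 in the other stages (adjusted p = 7.41e-05). Of the receptors, 2 of 7 tested (28.6%) were called, which is near the 23.2% of all genes. Itga2, the collagen-binding integrin chain of epithelium and platelets, had stage means of 20.9, 68.4, 9.26 and 7.82 CPM (adjusted p = 4.04e-05), and Ddr2, a receptor kinase for fibrillar collagen on fibroblasts, 73.6, 158.2, 123.9 and 114.5 CPM (adjusted p = 0.000842).

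Of the genes that break collagen down or restrain its breakdown, 5 of 12 tested (41.7%) differed over the cycle, beside 23.2% of all genes, and 8 without metestrus replicate 5. In estrus against proestrus 6 (50%) were called higher and none lower, beside 9.67% and 7.46% of all genes. Ctsl, a cathepsin that cuts collagen in lysosomes, went from 352.5, 504.0 and 362.4 CPM in proestrus to 1420, 2124 and 2031 in estrus, then 607.9, 278.4 and 420.3 in metestrus and 263.2, 261.5 and 265.4 in diestrus (estrus minus proestrus 2.19, SE 0.25, adjusted p = 0.00026). The whole list, inhibitors included, summed to 899.6 to 1065 CPM in proestrus and 2589 to 3398 in estrus, and Ctsl was the largest part of it in estrus. Mmp2, a gelatinase, had stage means of 89.5, 252.0, 315.1 and 244.7 CPM and was lowest in proestrus (estrus minus proestrus 1.495, SE 0.24, adjusted p = 0.00163). Mmp14, the membrane protease that activates it, measured 138.6, 159.6 and 157.3 CPM in proestrus, 347.0, 395.8 and 393.9 in estrus, 588.2, 162.9 and 144.3 in metestrus, and 209.9, 173.0 and 222.4 in diestrus. Metestrus replicate 5, lowest in fibrillar collagens, was the highest of all 12 uteri in Mmp14, and estrus was above proestrus by 1.32 (SE 0.39, adjusted p = 0.0347, over 0.05 without any 1 of 6 uteri, up to 0.108). The inhibitor Timp2 rose with the proteases, from 183.2 to 358.8 CPM on average (0.97, SE 0.16, adjusted p = 0.00171). Of the basement membrane partners 7 of 13 tested (53.8%) differed over the cycle, and 6 (46.2%) were called higher and none lower in estrus than in proestrus, beside the same shares of all genes. The laminin chains Lama5 (stage means of 31.9, 52.1, 21.9 and 20.1 CPM; adjusted p = 0.000168) and Lama3 (13.2, 52.6, 15.3 and 3.52 CPM; adjusted p = 0.000349) peaked in estrus, the stage in which Col4a1 was highest.

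Promoters are shown for fibrillar and type VI members lower in estrus (Col5a1 and Col6a3) and for members higher in diestrus (Col11a1, Col18a1 with its 2 annotated starts, and Col23a1), to set beside each other genes that moved together. Each line, credited to RefSeq, holds the 250 bases before the RefSeq start, 5' to 3' on the strand of the gene (GRCm38.p6). Capitals mark a CCAAT box (CCAAT or, on the other strand, ATTGG) or a GC box (GGGCGG or CCGCCC).
Col5a1, chr2:27886175-27886424 (plus strand): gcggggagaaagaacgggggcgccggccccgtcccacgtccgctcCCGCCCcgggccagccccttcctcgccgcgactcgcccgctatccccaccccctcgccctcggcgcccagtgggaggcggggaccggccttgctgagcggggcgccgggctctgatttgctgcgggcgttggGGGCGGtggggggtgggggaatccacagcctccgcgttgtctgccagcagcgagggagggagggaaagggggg
Col6a3, chr1:90843972-90844221 (minus strand): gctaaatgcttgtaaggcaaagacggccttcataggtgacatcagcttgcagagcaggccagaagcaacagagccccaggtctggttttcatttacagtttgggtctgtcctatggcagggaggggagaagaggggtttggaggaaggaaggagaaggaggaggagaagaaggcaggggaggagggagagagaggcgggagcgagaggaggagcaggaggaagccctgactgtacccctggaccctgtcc
Col11a1, chr3:114030290-114030539 (plus strand): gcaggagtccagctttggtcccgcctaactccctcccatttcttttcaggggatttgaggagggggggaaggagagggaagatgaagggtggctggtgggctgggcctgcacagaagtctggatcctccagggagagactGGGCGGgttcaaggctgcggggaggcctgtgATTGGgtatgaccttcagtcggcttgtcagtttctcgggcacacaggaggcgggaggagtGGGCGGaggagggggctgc
Col18a1 first start, chr10:77113706-77113955 (minus strand): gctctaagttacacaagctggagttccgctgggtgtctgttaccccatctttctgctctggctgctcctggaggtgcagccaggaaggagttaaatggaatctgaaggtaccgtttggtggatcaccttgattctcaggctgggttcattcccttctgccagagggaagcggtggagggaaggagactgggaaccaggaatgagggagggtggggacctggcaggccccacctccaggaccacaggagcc
Col18a1 second start, chr10:77166531-77166780 (minus strand): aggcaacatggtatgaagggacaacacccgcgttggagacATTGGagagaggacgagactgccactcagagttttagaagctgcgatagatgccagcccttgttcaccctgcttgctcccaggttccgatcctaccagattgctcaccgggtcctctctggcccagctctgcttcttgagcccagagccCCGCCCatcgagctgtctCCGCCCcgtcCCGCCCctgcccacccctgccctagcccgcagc
Col23a1, chr11:51289670-51289919 (plus strand): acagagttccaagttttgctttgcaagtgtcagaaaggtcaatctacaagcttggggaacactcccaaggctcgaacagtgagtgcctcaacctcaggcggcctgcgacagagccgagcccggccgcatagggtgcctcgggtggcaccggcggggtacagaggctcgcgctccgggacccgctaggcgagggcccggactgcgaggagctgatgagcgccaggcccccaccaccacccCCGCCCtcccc
Of the 28 tested collagens 21 had an entry in the RefSeq promoter table, with 23 promoters. A CCAAT box was found in 10 of the 23 (43.5%), beside 33.9% of all 32851 promoters of the same length, and a GC box in 16 (69.6%), beside 32.7%. The short estrogen receptor core GGTCA (or TGACC on the other strand), which the full element also holds, was found in 7 (30.4%), beside 35.2%, the full element GGTCANNNTGACC in none, beside 0.06%, and the steroid receptor core AGAACA (or TGTTCT) in none, beside 16.1%. The 32851 promoters were not limited to tested genes. Over all 38 collagen promoters, tested or not, the shares were 34.2% (CCAAT box), 57.9% (GC box), 36.8% (estrogen receptor core) and 5.26% (steroid receptor core). Col6a3, which had the largest fall from proestrus to estrus among the called members, had none of these letters in its window, nor had the first Col18a1 start. A match is a description of the letters, and no match says only that they are absent from this window.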

How the data were processed

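The authors deposited 1 transcript table per uterus with estimated counts and TPM, per the file headers. kallisto, FastQC and DESeq2 are named in the submitters' processing notes. The transcript set and any strand setting are not given in the sources used here. The TPM values, which the authors scaled by effective length, entered 1 alternative. Estimated counts were summed per gene with GENCODE M21 (GRCm38), where 2774 of 119414 transcripts found no match and held 0.619% to 0.774% of a library, and were rounded. Genes were filtered with filterByExpr by stage, scaled with TMM (factors 0.908 to 1.05) and tested with edgeR 4.0.16 in R 4.3.3 (quasi-likelihood, 1 coefficient per stage, 12 uteri, Benjamini-Hochberg over 12052 genes, adjusted p under 0.05). SE is the size of the log2 fold change divided by the root of its F. The script was tested on simulated data. P-values rest on the spread between uteri within stages, pooled over all stages in a fit and moderated across genes. In the fit to 12 uteri, the metestrus spread thus enters every contrast. Alternatives were DESeq2 1.42.0, RLE factors, library totals, no filter, counts scaled from TPM, 2 stages alone, a replicate block and leaving out each uterus.

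Members, classes and lists were chosen with earlier results of these data known. Values per uterus are given for members called over the cycle, for the most abundant member of a class and for further members called in a contrast. Of the related lists, the 2 genes of smallest p in each, where called, and Serpinh1, P4hb, Lox, Ddr2 and Mmp14 are given with values. Timp2 and list genes named without values were added after their calls were seen. Same-numbered estrus and diestrus uteri did not deviate together, so numbers were not taken to pair those samples.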

Additional observations from a re-analysis of the deposited data

How the results depend on the processing

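The counts of called collagens depended on the processing. None of 497 comparisons of 25 collagen fold changes with an alternative reversed sign (366 kept their side of the threshold, 107 lost and 24 gained the call). The 25 were the fold changes called in a contrast and a few uncalled ones picked by hand. They were refitted on mostly the same uteri, so a reversal was unlikely from the start and stable direction was not tested. Over the cycle, 6 collagens became 16 with no filter, 2 with counts scaled from TPM, 10 with DESeq2, 16 with a replicate block and 19 without metestrus. In the same order, these fits called 3345 of 20686, 1674 of 9683, 2850 of 12041, 2171 of 12052 and 4201 of 11770 genes. Estrus against proestrus (5) became 1 with TPM-scaled counts, 12 with the 2 stages alone and 12 without metestrus. Metestrus against estrus (1) became 4 with no filter, 3 with DESeq2, and 0 with the block or the 2 stages alone. Diestrus against metestrus (0) became 6 with the block. Proestrus against diestrus (5) became 8 with no filter, 1 with TPM-scaled counts, 3 with the block, 10 with the 2 stages alone and 12 without metestrus. Metestrus against proestrus (1) became 4 with no filter, 4 with the block, and 0 with TPM-scaled counts or the 2 stages alone. Diestrus against estrus (7) became 12 with no filter, 3 with TPM-scaled counts, 14 with the 2 stages alone, 15 without metestrus and 15 with the block. RLE factors and library totals kept each of these 7 counts within 1.5 times. Basement membrane partners went from 7 to 4 and processing genes from 7 to 4 with TPM-scaled counts, breakdown genes from 5 to 8 with no filter or without metestrus, and receptors from 2 to 4 without metestrus. In the block over all 12 uteri, numbers 1 and 2 occurred only in proestrus and 6 and 7 only in metestrus. Those uteri were fitted exactly by construction, so proestrus rested on replicate 3 and metestrus on replicate 5. Little spread was left to estimate in that fit, and its counts are not an ordinary alternative. What else moved the counts was not tested, apart from the smaller samples and other gene sets that these fits have by construction.

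The numbers 3, 4 and 5 are shared by estrus and diestrus, but deviations of same-numbered uteri correlated at -0.04, 0.01 and -0.02, so the number was not taken to pair these uteri. Numbers shared by other stages were not checked. With the number as a replicate block in these 6 uteri, 13 collagens were called, beside 14 in the 6 uteri without the block. Leaving out 1 uterus gave 2 to 15 collagens over the cycle, 0 to 8 for estrus against proestrus, 0 to 8 for metestrus against estrus, 0 to 2 for diestrus against metestrus, 1 to 9 for proestrus against diestrus, 0 to 9 for metestrus against proestrus and 3 to 12 for diestrus against estrus. For the lists it gave 7 to 12 folding, 4 to 7 processing, 2 to 3 receptor, 4 to 8 breakdown and 5 to 10 basement membrane genes. Over all genes, counts that moved by over 1.5 times with a setting other than leaving out 1 uterus were 1674 (TPM-scaled) and 4201 (without metestrus) beside 2793 over the cycle, 1269 (TPM-scaled) and 711 (block) beside 2064 for estrus against proestrus, and 1801 (TPM-scaled) beside 2744 for diestrus against estrus. For metestrus against estrus they were 410 (TPM-scaled), 132 (block) and 299 (2 stages alone) beside 911, and for proestrus against diestrus 539 (TPM-scaled), 358 (block) and 1563 (without metestrus) beside 1028. For metestrus against proestrus they were 935 (no filter), 157 (TPM-scaled), 89 (block) and 42 (2 stages alone) beside 519, and for diestrus against metestrus 256 (no filter), 0 (TPM-scaled), 189 (block), 0 (2 stages alone) and 148 (DESeq2) beside 27. Leaving out 1 uterus moved the counts over all genes to 1910 to 3428 over the cycle, 1100 to 2414 for estrus against proestrus, 341 to 1364 for metestrus against estrus, 5 to 173 for diestrus against metestrus, 519 to 1281 for proestrus against diestrus, 78 to 1080 for metestrus against proestrus and 1910 to 3146 for diestrus against estrus. The 16 collagens not tested reached at most 4.57 CPM on average.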

Other observations

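The T run of Col4a3-204 was not alone. Among 299 annotated transcripts with a run of 26 T or more, 200 had at least 100 estimated counts over the 12 uteri, and the transcript Olfr907-203 of an olfactory receptor gene, with a run of 33 T, held 476859. Col4a3-204 ranked at place 41 of 116640 transcripts by counts. Whether such reads arose on the named genes was not tested.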
